A study of Mus musculus with 47 samples.

Results

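The HOX cluster genes encode homeodomain transcription factors that lie side by side in 4 clusters, named Hoxa, Hoxb, Hoxc and Hoxd. The 38 mouse members described here were taken by gene symbol, with no measured value used in the choice. Expression tables list 37 of them among 38347 genes for undifferentiated cells to day 2, 37 among 38347 genes for day 3.5 to day 7.5, and 38 among 37514 genes for a separate set of Nkx2.2-/- and WT cells. Hoxd4 is listed by symbol in the last of these alone and was not analysed in the others.

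The libraries are poly-A selected mRNA from mouse embryonic stem cells (ESC) that differentiated as a monolayer in N2B27 medium into neural progenitors. All differentiating cells received retinoic acid (RA) for the first 3.5 days, together with SAG1.3, an activator of Sonic hedgehog signalling. Foxa2-/- cells had 3 libraries each as ESC and on days 1, 2, 3.5, 4.5 and 5.5, and 2 libraries each on days 6.5 and 7.5. Their WT controls had 2 libraries each as ESC and on days 1 and 2, and 3 libraries each on days 3.5, 4.5, 5.5, 6.5 and 7.5. In this arm SAG1.3 was present throughout. Nkx2.2-/- cells and their own WT controls had 1 library each on days 3.5 and 5.5, with SAG1.3 for the first 3.5 days, which makes 47 libraries in all. From day 3.5 onward, prominin-positive cells were isolated on magnetic beads before RNA extraction. The labels give the line of the mutant cells as C57BL/6 and that of the WT cells as E14.5, so line and genotype cannot be told apart. Libraries of a group are not said to come from separate cultures, and p-values then measure only the spread between these libraries. RNA came from many cells at once, in which fewer cells of a type and less RNA per cell cannot be told apart.

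HOX genes are numbered by paralog group, and within each cluster they are arranged in the order in which they are activated along the body axis. Low-numbered genes at the 3′ end of a cluster mark the hindbrain, middle ones the cervical to thoracic spinal cord, and the high-numbered genes at the 5′ end the lumbar region and tail. Retinoic acid is a classical inducer of the 3′ genes, acting through receptors bound to repeats of the hexamer AGGTCA, and HOX proteins bind DNA with TALE homeodomain partners of the PBX, MEIS and PKNOX families. In the GENCODE annotation of GRCm38, the 10 Hoxa members span chr6:52162417-52260880 on the minus strand and the 10 Hoxb members span chr11:96194316-96368256 on the plus strand. The 9 Hoxc members span chr15:102921103-103036852 and the 9 Hoxd members chr2:74668310-74765142, both on the plus strand. Annotated gene spans overlap on the same strand in 8 pairs that involve 11 of the 38 members. They are Hoxa3 with Hoxa4, Hoxa5 and Hoxa6, Hoxc5 with Hoxc6, Hoxc8, Hoxc9 and Hoxc10, and Hoxd3 with Hoxd4, so values of these genes are uncertain where reads could belong to either gene.

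Promoters of 4 members are shown because the early values turn on them: Hoxd3 and Hoxa2, which were higher on day 2 than on day 1, and Hoxb1 and Hoxa5, which were lower. Each runs from 250 bases before to 50 bases after a RefSeq transcript start, on the gene's own strand in GRCm38.p6, and capitals mark AGGTCA or its complement TGACCT (Hoxd3 and Hoxa5), or the PBX-HOX bipartite motif TGATNNAT on either strand (Hoxa2 and Hoxb1). The windows are chr2:74711743-74712042 (plus) for Hoxd3, chr6:52164782-52165081 (minus) for Hoxa2, chr11:96365508-96365807 (plus) for Hoxb1 and chr6:52204538-52204837 (minus) for Hoxa5.
Hoxd3: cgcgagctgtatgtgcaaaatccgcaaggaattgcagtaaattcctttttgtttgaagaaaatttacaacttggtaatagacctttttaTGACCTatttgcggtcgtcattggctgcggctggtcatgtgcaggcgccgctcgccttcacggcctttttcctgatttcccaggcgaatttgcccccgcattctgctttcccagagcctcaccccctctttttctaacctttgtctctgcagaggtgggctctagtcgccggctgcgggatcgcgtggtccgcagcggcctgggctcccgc
Hoxa2: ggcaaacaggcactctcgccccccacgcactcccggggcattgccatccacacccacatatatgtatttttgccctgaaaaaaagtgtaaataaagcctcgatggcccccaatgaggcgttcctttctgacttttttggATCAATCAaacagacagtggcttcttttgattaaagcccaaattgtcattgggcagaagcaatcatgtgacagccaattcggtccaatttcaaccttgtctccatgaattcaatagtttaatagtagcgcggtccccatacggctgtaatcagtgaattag
Hoxb1: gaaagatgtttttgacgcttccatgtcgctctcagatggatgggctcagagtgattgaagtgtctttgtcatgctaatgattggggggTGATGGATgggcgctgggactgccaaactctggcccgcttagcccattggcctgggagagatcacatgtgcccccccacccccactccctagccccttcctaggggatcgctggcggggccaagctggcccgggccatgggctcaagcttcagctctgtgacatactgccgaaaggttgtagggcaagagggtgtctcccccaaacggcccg
Hoxa5: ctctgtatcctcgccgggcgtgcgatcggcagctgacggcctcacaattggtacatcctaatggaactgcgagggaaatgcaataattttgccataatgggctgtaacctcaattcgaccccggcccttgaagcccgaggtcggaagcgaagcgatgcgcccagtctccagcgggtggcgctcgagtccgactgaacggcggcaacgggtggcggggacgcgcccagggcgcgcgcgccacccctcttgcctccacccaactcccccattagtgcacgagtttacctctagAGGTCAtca
In 1 promoter per gene, the first that the table lists, the hexamer AGGTCA occurred on either strand in 7 of the 22 HOX members with a promoter in the RefSeq table, and in 16.04% of all 27025 promoters. The bipartite motif occurred in 3 of the 22, against 9.04% of all promoters. The homeodomain core TAATTA occurred in 1 of the 22 against 5.31%, and the CCAAT box in 14 of the 22 against 37.9%. A match describes the letters of the window and does not show that a factor binds there.

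The step between the lowest values of single-transcript genes gave an estimated depth of 32400000 to 38900000 fragments for the 15 libraries to day 2, 13500000 to 30900000 for the 28 libraries from day 3.5, and 9770000 to 12300000 for the 4 libraries of the Nkx2.2 arm. Foxa2 was at 0 to 0.0444 FPKM (fragments divided by transcript length and library size) in Foxa2-/- libraries to day 2, against 41.8 and 25.5 FPKM in the WT libraries of day 2. From day 3.5 Foxa2 was at 0 to 0.266 FPKM in Foxa2-/- libraries, against 37.7 to 100.005 FPKM in their WT controls. In the WT libraries of the Nkx2.2 arm Foxa2 was at 171.5 and 259.5 FPKM on days 3.5 and 5.5. Nkx2-2 was at 1.34 and 3.38 FPKM in the Nkx2.2-/- libraries of days 3.5 and 5.5, against 19.6 and 28.7 FPKM in WT. The progenitor gene Sox2 was at 57.9 to 103.8 FPKM from day 3.5 on in the libraries of the Foxa2 arm. In the 4 libraries of the Nkx2.2 arm Sox2 was at 137.5 to 210.7 FPKM. Floor plate markers (Foxa2, Shh, Spon1, Corin and Nog), which mark the ventral midline, summed to 6.53 to 62.5 FPKM in Foxa2-/- libraries from day 3.5, and 5 of 5 were lower than in WT on days 3.5 to 6.5.

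WT libraries numbered 1 stood apart from WT libraries numbered 2 and 3 in their HOX levels from day 4.5 to day 6.5. Summed over all members, the WT library numbered 1 had 54.8, 56.6 and 44.6 FPKM on days 4.5, 5.5 and 6.5. WT libraries numbered 2 had 151.0, 197.8 and 224.9 FPKM on the same days, and those numbered 3 had 131.3, 205.8 and 288.5 FPKM. On each of these days the WT library numbered 1 was also the lower one in neuron markers (Elavl3, Stmn2, Dcx and Snap25). The sums were 57.4, 37.6 and 123.4 FPKM, against 125.6 to 338.9 FPKM in the others. The floor plate sum of the WT library numbered 1 was the higher one on each of these days, at 587.4, 1129 and 974.5 FPKM, against 320.5 to 946.1 FPKM in the others. Among Foxa2-/- libraries, number 1 stood apart on day 3.5, with a HOX sum of 127.1 FPKM, against 64.2 and 62.6 FPKM in the other two, of which Hoxd3 alone made up 60.0 FPKM, against 6.00 and 5.08 FPKM. Genotype differences from day 3.5 are given with all libraries and also with the libraries numbered 2 and 3 only. That choice was made from the HOX values themselves, so differences and counts from the libraries numbered 2 and 3 describe those libraries and are no test of the genotypes.

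Transcripts of the 5′ HOX genes were at low levels in all groups. Members that reached 1 FPKM in at least 2 libraries of their table were 20 of 37 to day 2 and 16 of 37 from day 3.5, and 12 of 38 reached 1 FPKM in at least 1 library of the Nkx2.2 arm. Only these were compared. Of the 20 to day 2, 5 belong to Hoxa, 9 to Hoxb, 2 to Hoxc and 4 to Hoxd. Of the 16 from day 3.5, 4 belong to Hoxa, 8 to Hoxb, 2 to Hoxc and 2 to Hoxd. The 12 members of paralog groups 10 to 13 gave 1 that passed to day 2, Hoxd13, and 0 from day 3.5, where they reached at most 0.474 FPKM. Members that stayed under 1 FPKM in every library numbered 16 to day 2, with a highest value of 0.892 FPKM, and 20 from day 3.5, with a highest value of 0.962 FPKM. Hoxc8 to day 2 and Hoxc6 from day 3.5 reached 1 FPKM in a single library and were not tested.

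Within the first day of RA and SAG1.3, 3′ and middle HOX genes rose together in both genotypes. Differences are on the log2(FPKM + 1) scale throughout and were tested with limma across all genes, with a two-sided test and a call at a Benjamini-Hochberg adjusted p under 0.05. Relative to ESC, 19 of 20 members were higher in Foxa2-/- cells of day 1, where 32.2% of all 16464 genes tested were higher, and 16 of 20 were higher in WT cells, where 10.8% of all genes were higher. None was lower in either genotype. Hoxb3 to Hoxb9, Hoxc4, Hoxc5, Hoxd1, Hoxd3, Hoxd8 and Hoxd13 were under 1 FPKM in every ESC library. They passed the filter through days 1 and 2 only, which left little room for a call of lower than ESC. The median difference over the 20 members was 1.76 in Foxa2-/- cells and 1.58 in WT cells, against medians over all genes of 0.26 and 0.08. Hoxd13 was not called in Foxa2-/- cells, and Hoxb3, Hoxd1, Hoxd8 and Hoxd13 were not called in WT cells. Cluster medians were 1.51 for Hoxa, 1.96 for Hoxb, 2.29 for Hoxc and 0.72 for Hoxd in Foxa2-/- cells, and 1.42, 1.78, 1.87 and 0.60 in WT cells, so the Hoxd members had the lowest median in both. Fitted on the 2 WT groups alone, with 4 libraries, 5 of the WT members passed instead of 16.

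**Figure D1:**
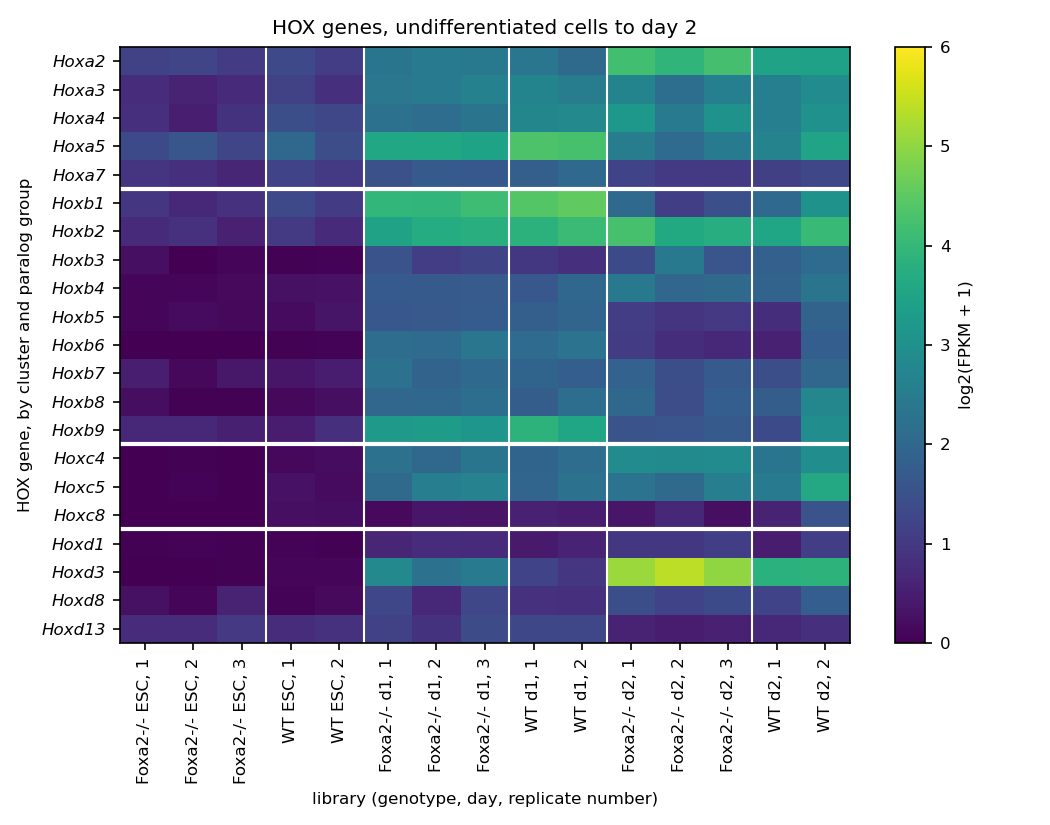
Level of each HOX gene that reached 1 FPKM in at least 1 library, in ESC and on days 1 and 2. Columns are single libraries with Foxa2-/- left of WT at each time, and colour is log2(FPKM + 1). Brighter colours are higher levels. ESC columns are the darkest, most genes brighten on day 1, and Hoxd3 is brightest on day 2, where it reached 41.6 FPKM in a Foxa2-/- library.

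Hoxb1, which marks rhombomere 4 and is among the earliest RA-induced HOX genes, showed a transient peak. In Foxa2-/- cells it had 0.916, 0.579 and 0.819 FPKM as ESC, 14.7, 14.5 and 16.5 FPKM on day 1, and 3.11, 1.18 and 1.78 FPKM on day 2. In WT cells it had 1.504 and 1.05 FPKM as ESC, 20.0 and 22.1 FPKM on day 1, and 3.14 and 7.31 FPKM on day 2. All day 1 libraries lay above all ESC and day 2 libraries of either genotype. The rise to day 1 was 3.20 ± 0.26 (SE, adjusted p = 4.9e-06) in Foxa2-/- cells and 3.28 ± 0.32 (adjusted p = 5.79e-05) in WT cells. The change on day 2 relative to day 1 was -2.47 ± 0.26 (adjusted p = 4.31e-05) and -1.91 ± 0.32 (adjusted p = 0.00167) in Foxa2-/- and WT cells. Hoxb2, a regulator of hindbrain segments, rose to day 1 by 2.95 ± 0.20 in Foxa2-/- cells and 3.10 ± 0.24 in WT cells and stayed high. Hoxb2 had 0.658, 0.801 and 0.458 FPKM as ESC, 9.95, 12.2 and 12.9 FPKM on day 1, and 18.2, 11.5 and 12.3 FPKM on day 2 in Foxa2-/- cells. In WT cells Hoxb2 had 1.02 and 0.673 FPKM as ESC, 13.5 and 16.1 FPKM on day 1, and 10.8 and 15.8 FPKM on day 2. Day 1 and day 2 libraries overlapped, and the differences between these days, 0.22 in Foxa2-/- cells and -0.16 in WT cells, were not called.

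From day 1 to day 2 the HOX genes parted, some rising further and others falling back. This comparison was added after the values were seen. In Foxa2-/- cells 5 of 20 members rose (Hoxa2, Hoxa4, Hoxb4, Hoxc4 and Hoxd3), where 9.21% of all genes were higher, and 7 of 20 fell (Hoxa5, Hoxa7, Hoxb1, Hoxb5, Hoxb6, Hoxb9 and Hoxd13), where 22.0% of all genes were lower. In WT cells 4 of 20 rose (Hoxa2, Hoxb3, Hoxc4 and Hoxd3), against 7.65% of all genes, and 6 of 20 fell (Hoxa5, Hoxa7, Hoxb1, Hoxb6, Hoxb9 and Hoxd13), against 9.56%. The medians over the members were -0.07 in Foxa2-/- cells and 0.07 in WT cells, against -0.12 and 0.00 over all genes. In WT cells the 10 called members were 4 without day 1 replicate 1 and 6 without day 1 replicate 2.

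Hoxd3, a paralog group 3 gene of the caudal hindbrain and neck region, gave the largest rise of the 20 members by day 2 in both genotypes. It had 0, 0 and 0.0240 FPKM as ESC, 6.09, 3.80 and 4.51 FPKM on day 1, and 33.4, 41.6 and 31.1 FPKM on day 2 in Foxa2-/- cells. In WT cells it had 0.0604 and 0.0641 FPKM as ESC, 1.30 and 0.918 FPKM on day 1, and 13.3 and 13.8 FPKM on day 2. Each time point lay above the one before it in every library of its genotype. Hoxa2, which sets the identity of rhombomere 2 and of the second pharyngeal arch, had 1.27, 1.40 and 1.11 FPKM as ESC, 4.03, 4.66 and 4.38 FPKM on day 1, and 17.03, 14.3 and 17.9 FPKM on day 2 in Foxa2-/- cells. In WT cells Hoxa2 had 1.51 and 1.14 FPKM as ESC, 4.10 and 3.19 FPKM on day 1, and 9.95 and 9.74 FPKM on day 2. Its rise on day 2 relative to day 1 was 1.69 ± 0.13 (adjusted p = 4.4e-06) in Foxa2-/- cells and 1.23 ± 0.16 (adjusted p = 0.000244) in WT cells.

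Hoxa5 and Hoxc5, paralog group 5 genes of the cervical and brachial cord that pattern phrenic motor neurons, followed different courses. Hoxa5 had 1.55, 2.04 and 1.38 FPKM as ESC, 10.8, 11.1 and 10.2 FPKM on day 1, and 4.78, 3.29 and 4.53 FPKM on day 2 in Foxa2-/- cells. In WT cells Hoxa5 had 3.10 and 1.65 FPKM as ESC, 18.9 and 18.2 FPKM on day 1, and 5.44 and 10.4 FPKM on day 2. Its fall on day 2 relative to day 1 was -1.18 ± 0.22 (adjusted p = 0.0021) in Foxa2-/- cells and -1.19 ± 0.27 (adjusted p = 0.0102) in WT cells, with no overlap between the days in either genotype. Hoxc5 had 0, 0.0401 and 0 FPKM as ESC, 3.20, 4.91 and 5.29 FPKM on day 1, and 3.90, 3.24 and 4.92 FPKM on day 2 in Foxa2-/- cells. In WT cells Hoxc5 had 0.227 and 0.129 FPKM as ESC, 2.86 and 3.73 FPKM on day 1, and 4.44 and 11.3 FPKM on day 2. Its levels on days 1 and 2 overlapped in Foxa2-/- cells, and the differences of -0.11 in Foxa2-/- cells and 0.94 in WT cells were not called. Hoxb9, a thoracic gene, behaved like Hoxa5, with 8.48, 8.75 and 7.90 FPKM on day 1 and 1.91, 1.98 and 2.25 FPKM on day 2 in Foxa2-/- cells. In WT cells Hoxb9 had 13.6 and 10.7 FPKM on day 1 and 1.57 and 6.65 FPKM on day 2.

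On day 2 relative to ESC, 18 of 20 members were higher in Foxa2-/- cells, where 31.4% of all genes were higher, and 18 of 20 in WT cells, where 19.1% were. Hoxa7 and Hoxd13 were not called in either genotype. As for day 1, most members passed the filter only through days after ESC, which left little room for a call of lower. The members' medians were 1.49 in Foxa2-/- cells and 1.46 in WT cells, against 0.14 and 0.11 over all genes. All 6 markers of undifferentiated cells tested (Pou5f1, Nanog, Zfp42, Esrrb, Klf4 and Tfcp2l1) were lower by day 1 and by day 2 in both genotypes, and 6 of 7 neural progenitor markers were higher by day 2 in both.

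**Figure D2:**
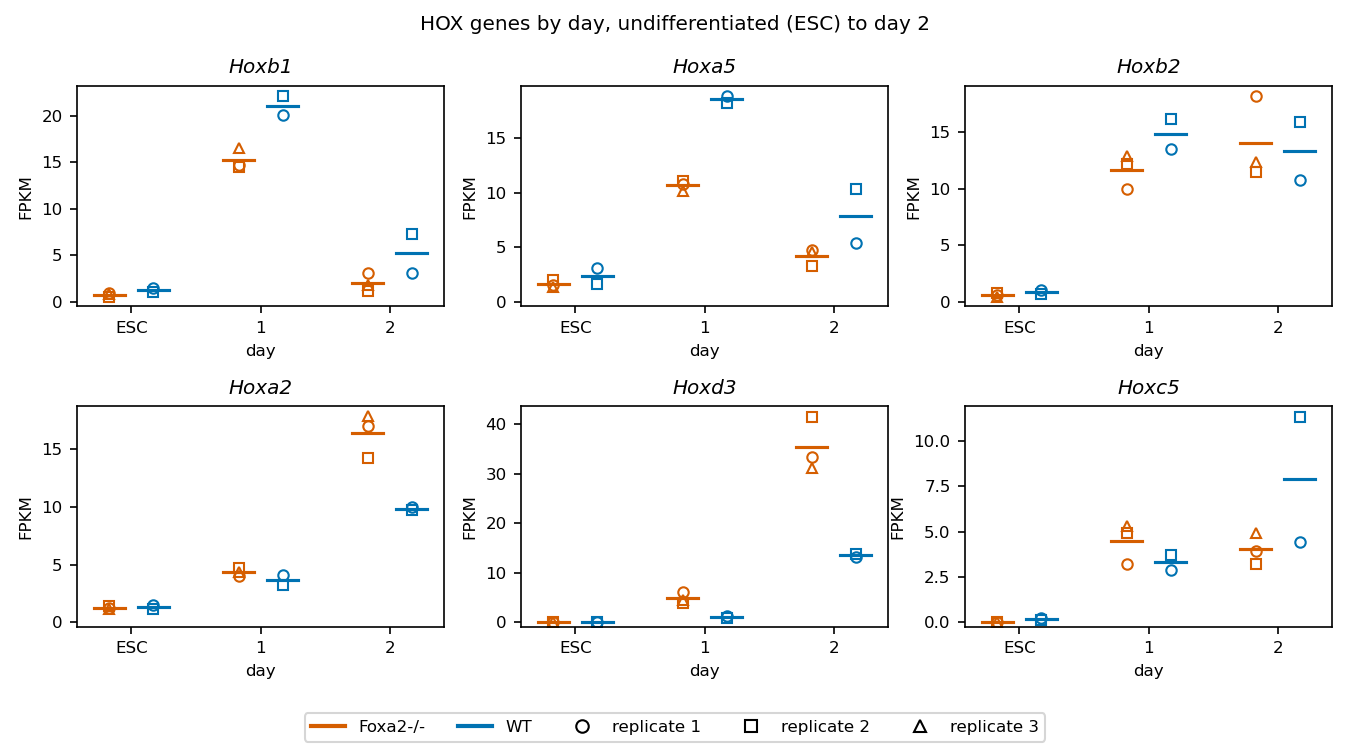
FPKM of 6 HOX genes in single libraries of ESC, day 1 and day 2, with Foxa2-/- left of WT and bars at group means. Hoxb1 and Hoxa5 peak on day 1, Hoxb2 stays level from day 1 to day 2, and Hoxd3 and Hoxa2 are highest on day 2.

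Between genotypes, Hoxd3 and Hoxa2 were the members called during the first 2 days. In ESC 0 of 20 members were called between Foxa2-/- and WT cells by limma, with 2 at an unadjusted p under 0.05, and 0.377% of all genes were called. On day 1, 1 of 20 was higher in Foxa2-/- cells, Hoxd3, where 1.20% of all genes were higher, and 0 were lower. On day 2, 2 of 20 were higher, Hoxd3 and Hoxa2, where 1.60% of all genes were higher, and 0 were lower. Hoxd3 was higher in Foxa2-/- cells by 1.45 ± 0.17 on day 1 (adjusted p = 0.00176) and by 1.31 ± 0.17 on day 2 (adjusted p = 0.00129), with all 3 Foxa2-/- libraries above both WT libraries on each day. The change of Hoxd3 from ESC to day 2 was 5.16 in Foxa2-/- cells and 3.77 in WT cells, and the difference between them was 1.39 ± 0.25 (interaction test, adjusted p = 0.0224). It was the 1 member called for this interaction, where 0.261% of all genes were higher, and was not called in a fit of these 4 groups alone (adjusted p = 0.0599). The interaction call was lost on leaving out any of the 5 ESC libraries or either WT library of day 2, with adjusted p-values of 0.00487 to 0.128 over the libraries left out. Hoxa2 was higher in Foxa2-/- cells on day 2 by 0.68 ± 0.14 (adjusted p = 0.0202), again without overlap. Its call was lost without Foxa2-/- replicate 3 (adjusted p = 0.0813), WT replicate 1 (adjusted p = 0.142) or WT replicate 2 (adjusted p = 0.175). In a fit of the 5 libraries of day 2 alone, 0 members were called.

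Of the 20 members 13 had a negative difference on day 2, and its size moved with the WT library. The median difference over the 20 members was -0.11 in ESC, -0.05 on day 1 and -0.17 on day 2, against -0.04, 0.09 and -0.02 over all genes. Hoxb1 had a difference of -1.01 ± 0.29 on day 2 (adjusted p = 0.0629), and the WT replicate 2 value of 7.31 FPKM lay above all others. Set against the WT library of the same number, the median difference over the 20 members on day 2 was 0.28 for number 1, with 5 of 20 lower in Foxa2-/- cells, and -0.54 for number 2, with 17 of 20 lower. Without WT replicate 1, 6 members were called on day 2, of which 1 was higher and 5 were lower in Foxa2-/- cells. Summed over all members, HOX levels on day 2 were 122.6, 109.1 and 111.0 FPKM in Foxa2-/- cells, against 78.8 and 125.9 FPKM in WT cells. Progenitor markers were higher in Foxa2-/- cells too, 2 of 7 on day 1 and 5 of 7 on day 2, against 1.20% and 1.60% of all genes. Their part in the Hoxd3 and Hoxa2 differences was not tested.

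In the prominin-positive progenitors from day 3.5, HOX genes were called lower in Foxa2-/- than in WT cells mainly on day 6.5. Fitted on the groups of day 6.5 alone, no member was called, and fewer were called without the filter. The 2 called lower on day 5.5 were near the share over all genes. The 1 called higher on day 7.5, Hoxa2, was under that share. With all libraries, the median difference of Foxa2-/- from WT over the 16 members tested was -0.76, -0.77, -0.94, -1.27 and -0.10 on days 3.5, 4.5, 5.5, 6.5 and 7.5, against medians over all genes between -0.01 and 0.07. On day 3.5, 0 of 16 members were called by limma and 1 had an unadjusted p under 0.05, where 3.38% of all 17124 genes tested were called. On day 4.5, 0 of 16 were called and 4 had an unadjusted p under 0.05, where 7.50% of all genes were called. On day 5.5, 2 of 16 were lower in Foxa2-/- cells, where 9.73% of all genes were lower. On day 6.5, 7 of 16 were lower, where 11.9% of all genes were lower. Of the 16 members, Hoxb5, Hoxb6, Hoxb9 and Hoxd8 reached 1 FPKM in WT libraries only, and all but Hoxd8 were among the 7. These members passed the filter through WT cells, which left little room for a call of higher in Foxa2-/- cells. On day 7.5, 0 were lower and 1 of 16 was higher, where 13.6% of all genes were higher.

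**Figure D3:**
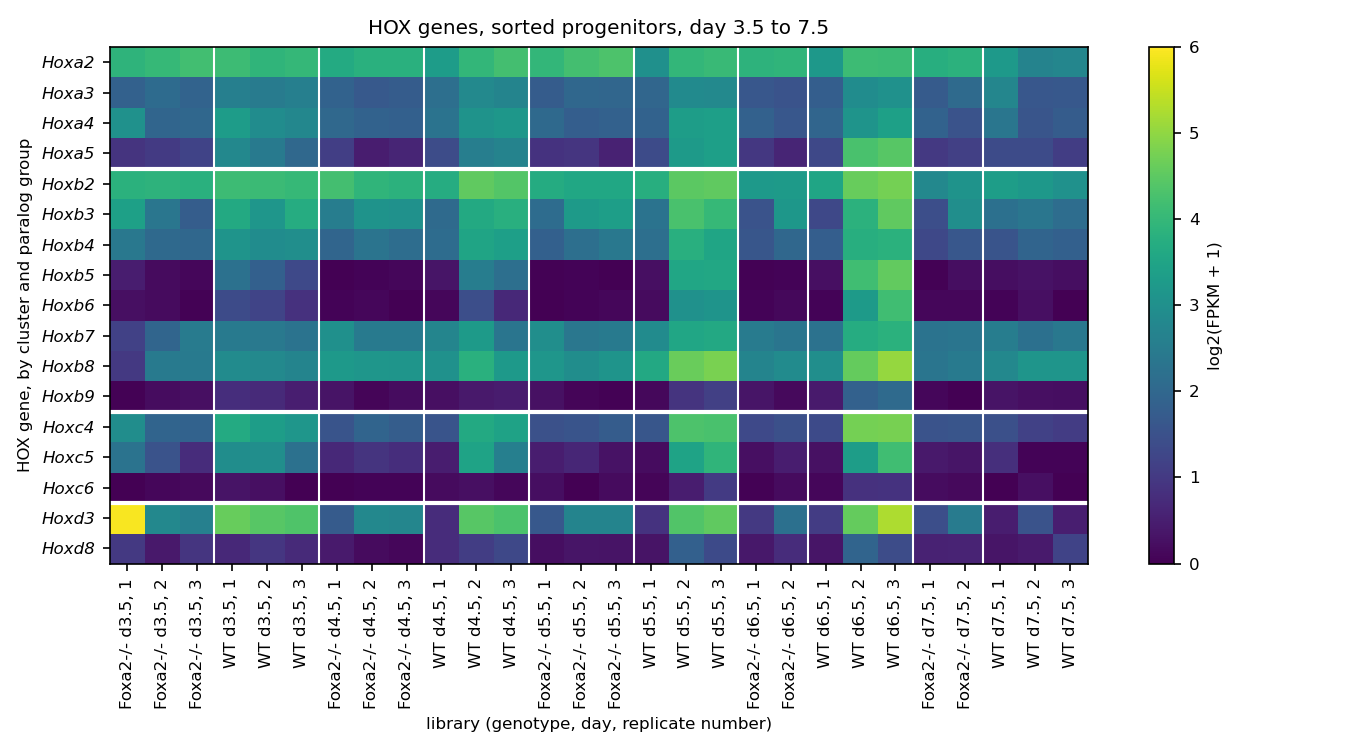
Level of each HOX gene that reached 1 FPKM in at least 1 library, on days 3.5 to 7.5. Columns are single libraries with Foxa2-/- left of WT on each day, and colour is log2(FPKM + 1). Brighter colours are higher levels. On days 4.5 to 6.5 the WT columns numbered 2 and 3 are brighter for most genes than the WT column numbered 1 and the Foxa2-/- columns. On day 7.5 all columns are dark for Hoxb5, Hoxb6 and Hoxc5.

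These counts turned on single libraries. On day 5.5, 10 members were lower without WT replicate 1, and 0 were called without any other single library of that day. On day 6.5 the count was 14 without WT replicate 1, 3 without WT replicate 2, 2 without WT replicate 3, 3 without Foxa2-/- replicate 1 and 1 without Foxa2-/- replicate 2. With the libraries numbered 2 and 3 only, which leaves 1 Foxa2-/- library on days 6.5 and 7.5 that is assumed to vary like the other groups, 9 of 16 members were lower in Foxa2-/- cells on day 3.5, against 5.83% of all 16714 genes tested. In that fit 10 of 16 were lower on day 4.5, against 7.71% of all genes. The count was 15 of 16 on day 5.5, against 14.1%, and 14 of 16 a day later, against 16.6%. The members' medians in it were -0.90, -1.06, -1.45 and -1.80 on these 4 days. In the libraries numbered 1, the median of Foxa2-/- minus WT over the 16 members was -0.71, 0.04, -0.11 and -0.08 on these days.

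Hoxa5 and Hoxb8 were lower in Foxa2-/- cells on both day 5.5 and day 6.5. Hoxa5 had 0.871, 1.04 and 1.32 FPKM in Foxa2-/- cells on day 3.5, against 5.98, 4.57 and 3.11 FPKM in WT cells. On day 5.5 it had 0.839, 0.896 and 0.486 FPKM in Foxa2-/- cells, against 1.59, 8.66 and 9.53 FPKM in WT cells. On day 6.5 it had 0.963 and 0.536 FPKM in Foxa2-/- cells, against 1.46, 18.3 and 20.8 FPKM in WT cells. All Foxa2-/- libraries lay below all WT libraries on these 3 days, and the WT library numbered 1 lay nearest to them on days 5.5 and 6.5. The difference was -1.89 ± 0.59 on day 5.5 (adjusted p = 0.0357) and -2.54 ± 0.66 on day 6.5 (adjusted p = 0.00791).

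Hoxb5 and Hoxb6, spinal cord genes next to each other in the Hoxb cluster, were under 0.2 FPKM on days 5.5 and 6.5 in every Foxa2-/- library and in the WT library numbered 1. On day 5.5 Hoxb5 had 0.0224, 0.0359 and 0 FPKM in Foxa2-/- cells, against 0.192, 10.7 and 11.05 FPKM in WT cells. On day 6.5 Hoxb5 had 0.0287 and 0.0469 FPKM in Foxa2-/- cells, against 0.182, 16.8 and 22.6 FPKM in WT cells. The groups did not overlap, but the WT library numbered 1 was far nearer to the Foxa2-/- libraries than to the other WT libraries. Hoxb6 on day 6.5 had 0.0426 and 0.0918 FPKM in Foxa2-/- cells, against 0.0446, 8.60 and 16.7 FPKM in WT cells, and the groups overlapped. Differences on day 6.5 were -2.93 ± 0.95 for Hoxb5 (adjusted p = 0.0282) and -2.40 ± 0.81 for Hoxb6 (adjusted p = 0.0348). With the libraries numbered 2 and 3 only, the Hoxb5 difference was -1.43, -2.29, -3.54 and -4.29 on days 3.5, 4.5, 5.5 and 6.5.

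Hoxb8, Hoxb9, Hoxb2 and Hoxa3 completed the 7 members lower on day 6.5. Hoxb8, a brachial and thoracic gene, had 7.95, 6.70 and 7.58 FPKM in Foxa2-/- cells on day 5.5, against 11.3, 23.8 and 26.7 FPKM in WT cells. On day 6.5 Hoxb8 had 5.51 and 6.48 FPKM in Foxa2-/- cells, against 6.80, 22.8 and 32.2 FPKM in WT cells. The groups did not overlap on either day, and the differences were -1.28 ± 0.41 (adjusted p = 0.0413) and -1.39 ± 0.46 (adjusted p = 0.0312). Hoxb9 on day 6.5 had 0.269 and 0.103 FPKM in Foxa2-/- cells, against 0.351, 2.66 and 3.21 FPKM in WT cells, a difference of -1.22 ± 0.32 (adjusted p = 0.00862). Hoxb2 on day 6.5 had 8.37 and 8.65 FPKM in Foxa2-/- cells, against 10.5, 23.2 and 25.8 FPKM in WT cells, a difference of -1.04 ± 0.28 (adjusted p = 0.00997). Hoxa3, which shapes the caudal hindbrain and the third pharyngeal arch, had 2.09 and 1.89 FPKM in Foxa2-/- cells on day 6.5, against 2.49, 6.58 and 7.21 FPKM in WT cells, a difference of -1.01 ± 0.34 (adjusted p = 0.0336). In Hoxb9, Hoxb2 and Hoxa3 too the WT library numbered 1 was the lowest WT library, and none of them overlapped between the genotypes.

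Hoxc4 and Hoxc5, genes of the lower cervical cord, were not called with all libraries, and their WT values were spread widely. Hoxc4 on day 6.5 had 1.52 and 1.75 FPKM in Foxa2-/- cells, against 1.55, 25.9 and 26.5 FPKM in WT cells, and the groups overlapped. Hoxc5 on day 6.5 had 0.193 and 0.396 FPKM in Foxa2-/- cells, against 0.197, 9.08 and 16.8 FPKM in WT cells. With the libraries numbered 2 and 3 only, the Hoxc4 difference was -1.33, -1.69, -2.65 and -3.30 on days 3.5, 4.5, 5.5 and 6.5. Hoxd3, which had been higher in Foxa2-/- cells on days 1 and 2, had 60.0, 6.00 and 5.08 FPKM in Foxa2-/- cells on day 3.5, against 23.5, 20.8 and 19.4 FPKM in WT cells. On day 5.5 Hoxd3 had 2.15, 5.48 and 5.57 FPKM in Foxa2-/- cells, against 0.851, 19.6 and 22.3 FPKM in WT cells. Its differences were not called with all libraries on days 3.5 to 7.5, and between the libraries numbered 1 it was higher in Foxa2-/- cells on days 3.5 to 5.5. With the libraries numbered 2 and 3 only they were -1.69, -1.58, -1.75 and -2.69 on days 3.5 to 6.5.

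Hoxa2 was not called lower in Foxa2-/- progenitors on any of these days. It ranged from 11.7 to 18.9 FPKM over all Foxa2-/- libraries of days 3.5 to 7.5. In WT cells Hoxa2 had 16.2, 14.2 and 15.0 FPKM on day 3.5 and 7.09, 14.7 and 15.7 FPKM on day 5.5. On day 7.5 Foxa2-/- cells had 12.6 and 13.4 FPKM, against 8.46, 5.46 and 5.78 FPKM in WT cells. The groups did not overlap, with a difference of 0.91 ± 0.29 (adjusted p = 0.0252). The call was lost without Foxa2-/- replicate 1 (adjusted p = 0.106), Foxa2-/- replicate 2 (0.0949), WT replicate 2 (0.0843) or WT replicate 3 (0.0769). With the libraries numbered 2 and 3 only, the Hoxa2 difference was 0.14, -0.28, 0.24 and -0.17 on days 3.5 to 6.5 and 1.12 on day 7.5. On day 7.5 that fit called 4 of 16 members higher in Foxa2-/- cells, Hoxa2, Hoxa3, Hoxc4 and Hoxd3, against 12.0% of all genes, and 0 lower. Of these, Hoxa3 had a difference of 0.43 in that fit and -0.11 with all libraries.

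**Figure D4:**
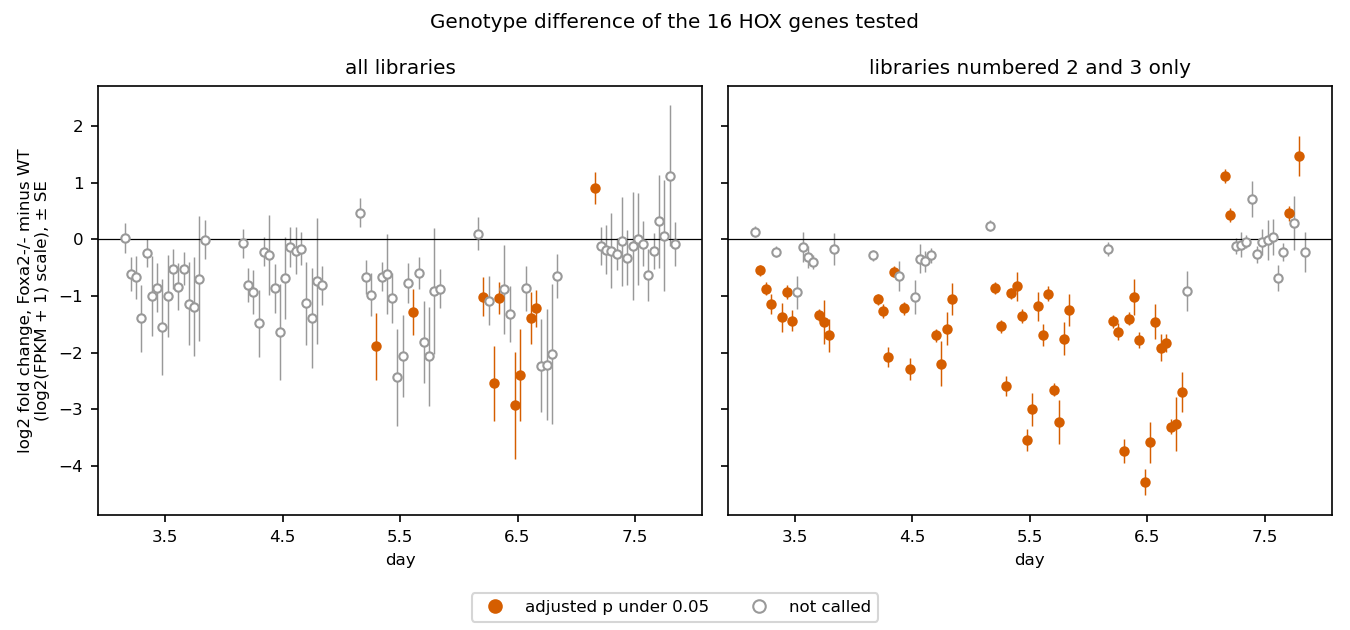
Log2 fold change of Foxa2-/- minus WT, with its SE, for the 16 HOX genes tested on each day, with all libraries on the left and the libraries numbered 2 and 3 only on the right. Filled points have an adjusted p under 0.05. With all libraries 7 genes are called lower on day 6.5, against 14 with the libraries numbered 2 and 3 only, and the second fit is a description, since its libraries were chosen by their HOX values.

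By day 7.5, several HOX genes had fallen in WT cells. On day 7.5 relative to day 3.5, 7 of 16 members were lower in WT cells (Hoxa2, Hoxa4, Hoxb2, Hoxb4, Hoxc4, Hoxc5 and Hoxd3), where 22.4% of all genes were lower, and 0 were higher. In Foxa2-/- cells 1 of 16 was lower, Hoxb2 by -0.90 ± 0.28 (adjusted p = 0.0188), where 13.4% of all genes were lower, and 0 were higher. The members' medians were -0.21 in Foxa2-/- cells and -1.11 in WT cells, against 0.07 and 0.03 over all genes. The largest change in WT cells was that of Hoxd3, which had 0.401, 1.88 and 0.417 FPKM on day 7.5, against 23.5, 20.8 and 19.4 FPKM on day 3.5, a difference of -3.63 ± 1.11 (adjusted p = 0.0106). The WT count was 3 without day 3.5 replicate 1, 4 without day 7.5 replicate 2 and 3 without day 7.5 replicate 3. The Foxa2-/- count was 0 without either library of day 7.5. The genotypes' changes over this interval were not shown to differ with all libraries: 0 of 16 members were called for the interaction, where 7.42% of all genes were, and 1 had an unadjusted p under 0.05.

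Among the libraries numbered 2 and 3, described only, 1 of 16 members was higher in Foxa2-/- cells on day 7.5 than on day 3.5, against 24.6% of all genes, and 3 were lower, against 20.5%. In WT cells 13 of 16 were lower, against 25.2%, and the interaction gave 9 of 16, against 7.90% of all genes higher. The WT course over these days was not steady. In WT libraries numbered 2 and 3 Hoxb5 had 2.58 and 1.496 FPKM on day 3.5 and 10.7 and 11.05 FPKM on day 5.5. WT libraries with these numbers had 16.8 and 22.6 FPKM on day 6.5 and 0.222 and 0.159 FPKM on day 7.5. Libraries of the same number on different days are separate samples. HOX sums of all WT libraries on day 7.5 were 50.6, 43.3 and 41.3 FPKM, close together and near the 44.6 FPKM of the WT library numbered 1 on day 6.5, and those of Foxa2-/- libraries were 42.1 and 53.9 FPKM.

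**Figure D5:**
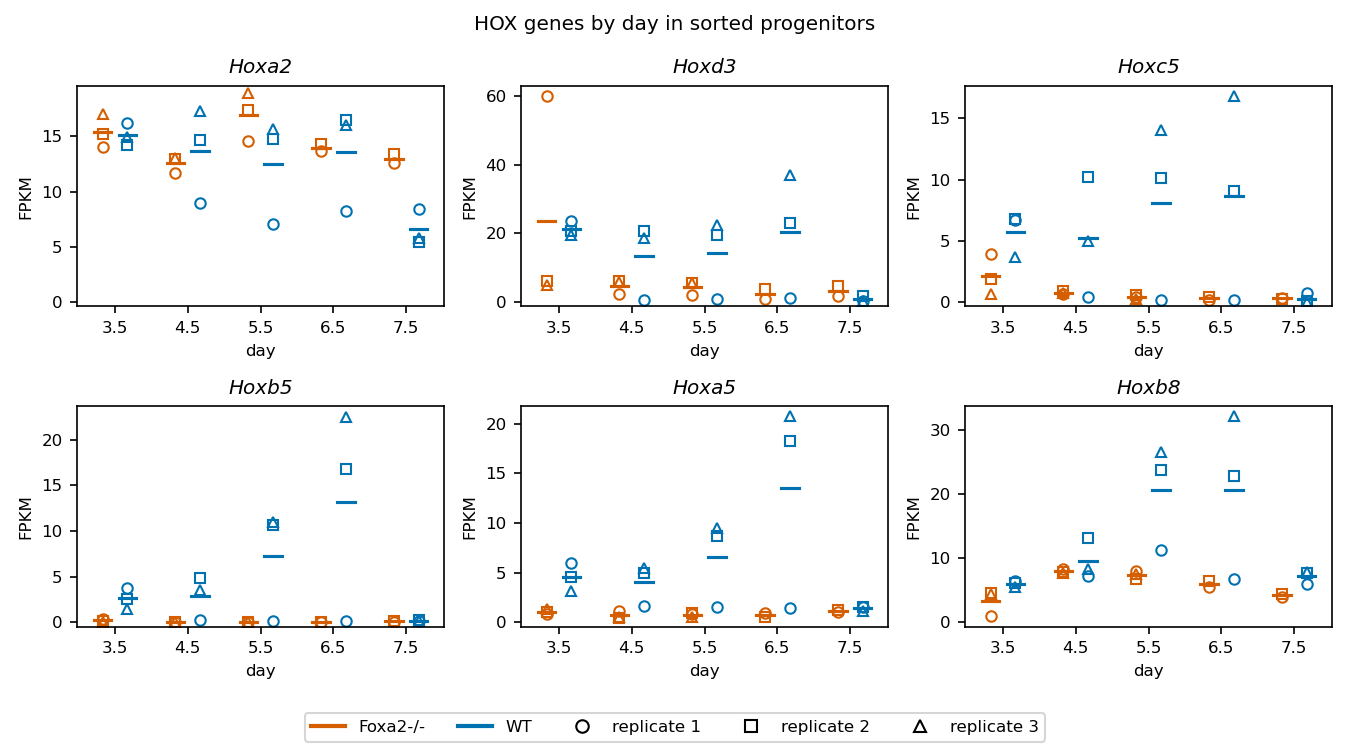
FPKM of 6 HOX genes in single libraries by day from 3.5 to 7.5, with Foxa2-/- left of WT. Symbols give the replicate number (circle 1, square 2, triangle 3) and bars the group means. WT squares and triangles of Hoxb5 and Hoxa5 are highest on days 5.5 and 6.5, WT circles of both stay low from day 4.5, and WT libraries of Hoxb5 are all under 0.3 FPKM on day 7.5.

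Neuron marker and HOX sums were both lower on day 7.5 than on day 6.5 in WT libraries numbered 2 and 3 only. For WT number 1 the neuron sums were 123.4 and 82.3 FPKM on days 6.5 and 7.5, with HOX sums of 44.6 and 50.6 FPKM. Foxa2-/- libraries had HOX sums of 46.5 and 57.2 FPKM on day 6.5 and 42.1 and 53.9 FPKM on day 7.5, without lower neuron sums. In WT libraries the neuron sum was 116.2 and 76.7 FPKM for numbers 2 and 3 on day 7.5, against 312.2 and 338.9 FPKM on day 6.5. In Foxa2-/- libraries the neuron sum was 102.1 and 145.6 FPKM on day 6.5 and 108.1 and 218.8 FPKM on day 7.5. Of the 4 neuron markers tested, 0 were called between genotypes on days 3.5 to 6.5. Pou5f1 had 19.6 and 5.94 FPKM in Foxa2-/- cells on day 6.5, against at most 0.973 FPKM in any WT library of the Foxa2 arm from day 3.5. The WT library of the Nkx2.2 arm on day 5.5 had 5.57 FPKM. The part of these markers in the HOX differences was not tested.

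Between Nkx2.2-/- and WT cells, HOX genes could be compared from 1 library each and therefore with no test. On day 3.5, 0 of 12 members differed by 1 or more on the log2(FPKM + 1) scale between Nkx2.2-/- and WT cells, where 4.63% of 15140 genes did in either direction. On day 5.5, 1 of 12 was lower by this rule, Hoxd3, with 0.432 FPKM in the Nkx2.2-/- library and 2.26 FPKM in the WT library, where 2.87% of genes were lower. The median difference over the 12 members was 0.22 on day 3.5 and -0.07 on day 5.5, against -0.02 over all genes on both days. By the mean over the 4 libraries, the highest member of the Hoxa cluster was Hoxa3, with 13.8 and 15.2 FPKM on days 3.5 and 5.5 in Nkx2.2-/- cells, against 20.8 and 22.6 FPKM in WT cells. In both Nkx2.2-/- libraries Hoxa2 was higher than Hoxa3, at 14.4 and 16.7 FPKM. Hoxb3, the highest of Hoxb by that mean, had 9.59 and 19.6 FPKM in Nkx2.2-/- cells, against 9.07 and 15.8 FPKM in WT cells. On day 3.5 Hoxb8 was higher than Hoxb3, at 13.7 FPKM in Nkx2.2-/- and 9.94 FPKM in WT cells. Hoxc4 had 3.56 and 2.66 FPKM in Nkx2.2-/- cells, against 3.49 and 3.90 FPKM in WT cells. Hoxb2 had 7.93 and 9.63 FPKM in Nkx2.2-/- cells, against 5.50 and 7.59 FPKM in WT cells, and Hoxb1 was at or under 0.130 FPKM in all 4 libraries. Between day 5.5 and day 3.5, 0 of 12 members differed by this rule in Nkx2.2-/- cells, against 5.17% of genes, and 0 in WT cells, against 6.99%. HOX sums were 83.9 and 96.0 FPKM in Nkx2.2-/- cells and 80.0 and 95.2 FPKM in WT cells on the 2 days.

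Genes that act with the HOX clusters were followed from lists of named genes. The RA list (Rara, Rarb, Rarg, Cyp26a1, Cyp26b1, Cyp26c1, Crabp1, Crabp2, Dhrs3 and Stra6), of which 9 of 10 were tested, rose with the HOX genes on day 1 relative to ESC, with 7 higher and 1 lower in Foxa2-/- cells and 6 higher and 1 lower in WT cells, against 32.2% and 10.8% of all genes higher. The list's medians were 3.36 in Foxa2-/- cells and 3.04 in WT cells. Rarb, an RA receptor that is itself an RA target, rose by 4.09 in Foxa2-/- cells and 3.78 in WT cells, and Cyp26a1, which degrades RA, by 3.63 and 4.88. The RA-binding proteins Crabp1 and Crabp2 were higher in Foxa2-/- than in WT cells on day 1, by 1.70 and 1.02, and on day 2, by 1.62 and 1.37. Cyp26b1, another RA-degrading enzyme, was higher in Foxa2-/- cells on every day from day 3.5, by 1.59, 2.75, 3.58, 3.70 and 4.68. It had 0.603, 6.75 and 5.66 FPKM on day 3.5 and 24.5 and 52.9 FPKM on day 7.5 in Foxa2-/- cells, against 0.0922 to 0.595 FPKM in all WT libraries of the Foxa2 arm on these days. In the Nkx2.2 arm Cyp26b1 had 2.16 and 0.479 FPKM in Nkx2.2-/- cells on days 3.5 and 5.5, against 12.1 and 1.52 FPKM in WT cells. Both of these WT values lay above the WT range of the Foxa2 arm.

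TALE cofactors (Pbx2, Pbx3, Pbx4, Meis1, Meis2, Meis3, Pknox1 and Pknox2) rose with the HOX genes on day 1 relative to ESC, 7 of 8 in Foxa2-/- cells, against 32.2% of all genes, and 5 of 8 in WT cells, against 10.8%, with 0 lower. The list's medians were 2.18 in Foxa2-/- cells and 1.13 in WT cells. Between genotypes, Pbx3 was higher in Foxa2-/- cells from day 4.5, by 0.94, 1.08, 1.15 and 1.36 on days 4.5 to 7.5, and Meis2 from day 5.5, by 1.56, 1.91 and 2.13. Pknox2 was lower, by -0.53, -0.71, -1.09 and -0.95 on days 4.5 to 7.5. On day 7.5, 4 of 8 cofactors were higher in Foxa2-/- cells, against 13.6% of all genes, and 1 of 8 was lower. Meis2 had 141.9 and 284.0 FPKM on day 6.5 in Foxa2-/- cells, against 31.3, 59.2 and 78.3 FPKM in WT cells, with no overlap.

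Among noncoding RNAs of the HOX clusters (10 listed, 5 tested to day 2 and 6 from day 3.5), Hotairm1, from the 3′ end of the Hoxa cluster, rose by 2.63 in Foxa2-/- cells and 2.52 in WT cells on day 1 relative to ESC. Halr1, a long noncoding RNA beside the Hoxa cluster, had 9.93, 6.79 and 9.87 FPKM in Foxa2-/- cells on day 2, against 20.6 and 33.1 FPKM in WT cells, a difference of -1.48 ± 0.23 (adjusted p = 0.00348). From day 3.5 it was at 0 to 1.21 FPKM in Foxa2-/- libraries, against 11.2 to 48.1 FPKM in WT libraries, with no overlap, and was lower by -3.17, -4.37, -5.07, -4.94 and -4.39 on days 3.5 to 7.5. The WT library numbered 1, which had the lowest WT HOX sum on days 4.5 to 6.5, had the highest Halr1 value of each day from day 3.5 to day 7.5. Hoxb3os was higher in Foxa2-/- cells on days 4.5 and 5.5, by 0.66 and 0.74. Hoxaas3 was lower on days 5.5 and 6.5, by -1.39 and -1.98, and Hoxd3os1 on days 4.5 and 6.5, by -0.64 and -0.85. Several of these RNAs are antisense to HOX genes, and whether the counting used strand is not given in the sources used here, so their reads and those of the opposite gene cannot be told apart.

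Of the 5 activators and hindbrain segment regulators tested (from Cdx1, Cdx2, Cdx4, Gbx2, Egr2, Nr6a1 and Gdf11), 1 was higher and 2 were lower on day 2 relative to ESC in Foxa2-/- cells, and 2 were higher and 2 lower in WT cells, against 31.4% and 19.1% of all genes higher. Of 11 chromatin regulators of the clusters (Polycomb and Trithorax group genes and H3K27 demethylases), 4 were higher and 3 lower on day 1 relative to ESC in Foxa2-/- cells, and 2 higher and 1 lower in WT cells, where 32.2% and 10.8% of all genes were higher, so the counts of higher genes were near the share over all genes. Cbx2, a Polycomb protein, was higher in Foxa2-/- than in WT cells on days 4.5 to 7.5, by 0.48, 0.56, 1.07 and 0.96. Among the anterior genes, Otx2, which marks forebrain and midbrain, was higher in Foxa2-/- ESC by 1.14 ± 0.15 (adjusted p = 0.00896). Otx2 fell by day 1 in both genotypes, by -2.53 in Foxa2-/- cells and -1.77 in WT cells. From day 4.5 to day 7.5, 1 of 3 anterior genes tested, Lhx2, was higher and 1, En2, was lower in Foxa2-/- cells. Of all genes, 7.50% were called in either direction on day 4.5. On days 5.5 and 6.5, 9.73% and 11.9% were lower, and on day 7.5, 13.6% were higher.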

How the data were processed

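FPKM were deposited by the authors as 3 tables, 1 value per gene and library, with no replicates pooled. Per the submitters' processing notes, TopHat2 2.0.4, Cufflinks 2.1.1, HTSeq 0.6.1, limma, bcl2fastq 1.8.3, CASAVA and the builds GRCm38 and mm10 were used, and the step each served is not given in the sources used here. Per the labels' protocols, libraries were TruSeq Stranded mRNA with poly-A selection. Another 3 columns of per-library values, which match no sample, were not used. FPKM are not counts, so values were tested as log2(FPKM + 1) with limma 3.58.1 (R 4.3.3), trend on, all groups of a table in 1 fit, two-sided, adjusted over all genes with at least 1 FPKM in at least 2 libraries, at an adjusted p under 0.05. Fold changes of low genes are understated on this scale. The 2 tables of the Foxa2 arm were fitted separately. The Nkx2.2 arm has 1 library per group and no test; a difference of 1 on this scale was counted. Members, lists, markers and tests were chosen with earlier results of these data known. Some listed genes are not reported here and were left out of their lists' counts and sums. Values in every library are given for members called with all libraries between genotypes or in an interaction, for the highest member of each cluster, and for Hoxb1 and Hoxb2; those of Hoxb9, Hoxc5 and Hoxd3 on other days were chosen after their values were seen. The comparison of day 2 with day 1 and the fit of libraries numbered 2 and 3 were added later. Alternatives were another pseudocount, no filter, median-of-ratios and quantile scaling, the groups compared alone, a replicate block, isolated zeros as missing, and leaving out each library. The code was tested on simulated data. Positions are from GENCODE M21 (GRCm38), and promoters from RefSeq (GRCm38.p6). Figures were drawn with matplotlib 3.10.9.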

Additional observations from a re-analysis of the deposited data

Results flagged for a closer look

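The change of Hoxd3 from undifferentiated cells to day 2 was larger in Foxa2-/- cells than in WT cells by 1.39 on the log2(FPKM + 1) scale, by the limma test of the difference between the genotypes' changes. All 3 Foxa2-/- libraries of day 2 lay above both WT libraries. The adjusted p was 0.0224 in the fit of all groups, 0.0599 in the fit of these 4 groups alone, and 0.00487 to 0.128 on leaving out 1 library at a time.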

How the results depend on the processing

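Of the 48 differences of named members that were refitted, 0 reversed under any alternative run. Among all 16 members, the libraries numbered 2 and 3 gave the opposite sign in 1 genotype difference on day 6.5 (Hoxa2, -0.17 against 0.10) and 4 on day 7.5, and in 5 changes from day 3.5 to day 7.5 in Foxa2-/- cells, 1 in WT cells and 2 in the interaction, 0 of them called with all libraries. Hoxa3 on day 7.5 (0.43 against -0.11) and Hoxb3 over these days in Foxa2-/- cells (0.90 against -0.31) passed the threshold with numbers 2 and 3, libraries chosen by their HOX values, so these counts are no test of the genotypes. Median-of-ratios scaling left every count of HOX members within 1.5 times its reported value, and HOX members held 0 isolated zeros. Genotype counts were, on day 2, 0 with the groups compared alone, 1 with a replicate block and 1 without Foxa2-/- replicates 1 and 3 together (2 reported). On day 3.5 they were 1 without the filter, 2 with the groups alone and 9 with libraries numbered 2 and 3 only (0 reported). On day 4.5 they were 1 without the filter and 10 with numbers 2 and 3 (0 reported). On day 5.5 they were 0 without the filter, 1 with the groups alone, 1 with quantile scaling, 4 with the block and 15 with numbers 2 and 3 (2 reported). On day 6.5 they were 4, 0 and 14, and on day 7.5 2, 0 and 4, without the filter, with the groups alone and with numbers 2 and 3 (7 and 1 reported). The WT count was 5 for day 1 against undifferentiated cells with the groups alone (16 reported), and 3 with the groups alone and 6 with pseudocount 0.1 for day 2 against day 1 (10 reported). For day 7.5 against day 3.5, Foxa2-/- cells gave 3 without the filter, 0 with the groups alone and 4 with numbers 2 and 3 (1 reported), and WT cells 11 with the groups alone and 13 with numbers 2 and 3 (7 reported). The interaction of day 2 gave 0 with the groups alone and 0 with the block (1 reported), and that of day 7.5 gave 1 without the filter, 3 with the groups alone and 9 with numbers 2 and 3 (0 reported). With pseudocount 0.1 the Nkx2.2 arm gave 2 on day 3.5, 2 on day 5.5 and 1 between the days in Nkx2.2-/- cells (0, 1 and 0 reported). The cause of these moves was not tested, beyond fewer libraries or more genes tested in some fits. Leaving out 1 library gave genotype counts of 0 to 0 in undifferentiated cells, 1 on day 1, 1 to 6 on day 2, 0 on days 3.5 and 4.5, 0 to 10 on day 5.5, 1 to 14 on day 6.5 and 0 to 1 on day 7.5. It gave 19 to 20 in Foxa2-/- and 16 in WT cells for day 1 against undifferentiated cells, 15 to 18 in both for day 2, 9 to 11 and 4 to 8 for day 2 against day 1, and 0 to 1 and 3 to 7 for day 7.5 against day 3.5. The interactions gave 0 to 3 for day 2 and 0 for day 7.5. Replicate numbers did not pair the samples: in 0 of the comparisons with 3 pairs did every pair of same-numbered libraries correlate over 0.1. Their deviations correlated at -0.129 to -0.0428 on day 2, -0.21 to -0.0384 on day 3.5, 0.038 to 0.117 on day 4.5 and 0.0676 to 0.232 between day 2 and undifferentiated Foxa2-/- cells, and, with 2 pairs, at 0.325 to 0.36 in undifferentiated cells and 0.169 to 0.177 on day 7.5, and no other count moved by over 1.5 times with the block. Depth limits what can be said of members under 1 FPKM, and FPKM give no counting interval.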
